A study of Rattus norvegicus with 6 samples.

Results

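Long intergenic noncoding RNAs (lincRNAs) expressed in heart muscle cells of newborn rats were examined with and without perhexiline. The deposited gene table annotates 3090 of its 34257 genes as lincRNA. An expressed lincRNA was one with at least 1 FPKM (fragments per kilobase per unit of library depth, a level that accounts for gene length) in at least 3 of the 6 libraries. By that rule 112 lincRNAs were kept, 3.62% of those annotated, against 53.4% of the protein-coding genes. The lincRNAs were thus chosen by their FPKM over all 6 libraries, not by the difference between groups, and their levels are given as a description. Cultured neonatal rat ventricular cardiomyocytes, primary cells taken from the ventricles of newborn pups, received vehicle (3 libraries) or perhexiline at 1 µM for 24 h (3 libraries). No genetic change is labelled in either group. Perhexiline is an antianginal drug known for inhibiting carnitine palmitoyltransferase, which brings long-chain fatty acids into mitochondria. Poly(A)-selected RNA was sequenced, so transcripts without a poly(A) tail are largely unseen. The labels do not say whether the libraries of a group came from separate cultures or animals, so each p-value speaks only of the spread between the libraries at hand, which may be technical.

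LincRNAs are transcripts made by RNA polymerase II from stretches of the genome between protein-coding genes, capped and often spliced like messenger RNAs but without a recognised protein product. Some act in the nucleus as scaffolds for chromatin or RNA-binding proteins, some act on the gene next to them through the act of transcription itself, and for most no role is known. Several in the heart lie beside genes for cardiac transcription factors. Their usual features are low levels and restriction to few tissues.

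Of the annotated lincRNAs, 1886 were at 0 in every library and 1204 had some reads. Among the 112 expressed ones, 77 reached 1 FPKM in all 6 libraries, 33 reached it in some libraries of both groups, and 2 (AABR07027381.1 and AABR07038849.2) passed through the vehicle libraries alone. The last 2 had to be lower with perhexiline to enter in that way. At the edge of the rule, the third highest library was at 1.005 FPKM for AABR07019088.1 and at 1.007 FPKM for AABR07038849.2, just inside, and at 0.991 FPKM for AC129370.1 and 0.979 FPKM for AABR07042454.2, just outside. Almost all lacked a gene symbol: 101 carried names of the assembly sequences (clones or contigs) they lie in, 9 carried LOC names, and the others were Tug1 and Rfwd3. RefSeq lists Rfwd3, a ubiquitin ligase of DNA repair, as protein-coding, and the table's descriptions gave 30 of the 112 a match to a protein and 2 a match to a LINE-1 element, so the class as annotated is not free of coding sequence.

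The lincRNAs were present at low levels. Their median of mean FPKM was 2.42, with a range from 0.812 to 71.6, against a median of 12.6 for the tested protein-coding genes. Of the 112, 18 averaged at least 10 FPKM and 43 averaged under 2. They were also short, with a median length of 934 bases against 2203 for all tested genes, so the median lincRNA rested on 54.7 fragments per library against 392.6. The libraries held 13616252 to 16702523 fragments. The spread between libraries of a group was wider for the lincRNAs, with a median SD of 0.20 on the log2(FPKM + 1) scale against 0.10 for all tested genes. Together the 112 took 0.0914% to 0.103% of fragments in the vehicle libraries and 0.0939% to 0.1003% with perhexiline, and these ranges overlap.

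The lincRNAs lay on 21 chromosomes, with 15 on chromosome 1, 13 on chromosome 3 and 9 on X. All lincRNA positions come from the gene table, and no source used here names its build. There were 4 loci with several expressed lincRNAs within 200000 bases of each other, and these held 11 of the 112. The most abundant of these loci, at chr1:221151827-221158792, held 3 of the 4 most abundant lincRNAs. The table gives the 3 transcripts clone names only.

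AC134224.3 was the most abundant lincRNA, with 78.5, 56.0 and 69.7 FPKM in the vehicle libraries and 62.6, 99.7 and 63.2 FPKM with perhexiline. AC134224.1 had 73.8, 56.9 and 72.2 FPKM in vehicle and 60.7, 72.2 and 63.1 FPKM with perhexiline. In both, the groups overlapped, and the differences were 0.12 (limma adjusted p = 0.732) and -0.04 (adjusted p = 0.839) on the log2(FPKM + 1) scale, perhexiline minus vehicle. AC134224.2 had 62.9, 54.0 and 71.0 FPKM in vehicle and 42.7, 45.6 and 55.0 FPKM with perhexiline. Its highest perhexiline library lay above the lowest vehicle library, and the difference of -0.38 did not pass the test (adjusted p = 0.0987). With each library left out in turn, the differences of AC134224.3 ran from -0.10 to 0.23 and those of AC134224.1 from -0.16 to 0.02, so neither kept 1 sign.

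The other lincRNAs among the 8 most abundant were AABR07039356.2, AABR07025387.1, AABR07072236.1, AABR07070131.1 and AABR07002969.1. AABR07039356.2, at chrX:74333329-74337975, overlaps the protein-coding LOC680227 on the opposite strand. It had 68.5, 67.0 and 64.5 FPKM in vehicle and 52.2, 48.8 and 65.9 FPKM with perhexiline. LOC680227 had 44.1, 48.0 and 42.7 FPKM in vehicle and 33.9, 32.6 and 46.0 FPKM with perhexiline. For both genes perhexiline library 3 lay among the vehicle values and perhexiline libraries 1 and 2 lay below them, with differences of -0.27 for each (adjusted p = 0.161 and 0.220). No source used here says whether counting used the strand, so reads of the pair cannot be told apart.

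AABR07072236.1 had 32.5, 23.2 and 28.0 FPKM in vehicle and 24.4, 27.0 and 21.4 FPKM with perhexiline, with overlapping groups (difference -0.19, adjusted p = 0.397). The lincRNA overlaps the protein-coding Gramd1c on the opposite strand, so reads of the pair cannot be told apart. Gramd1c was too low to test (difference -0.14). Zbtb20, a zinc finger repressor, is the protein-coding gene nearest by start coordinate (the lower end of a gene on either strand) and lies 19376 bases away. It had 10.3, 9.42 and 7.70 FPKM in vehicle and 6.01, 7.78 and 11.5 FPKM with perhexiline, also overlapping. AABR07002969.1 had 19.8, 21.4 and 20.1 FPKM in vehicle and 20.7, 18.8 and 23.2 FPKM with perhexiline, again overlapping (difference 0.03, adjusted p = 0.868). Its neighbour by start coordinate, AABR07002966.1, was listed at 0 in all libraries. By the gap between gene bodies LOC108348197 lies nearer (70402 against 90935 bases), and its difference of 0.21 did not pass (adjusted p = 0.493). AABR07070131.1 lies tail to tail with Ncam1, the neural cell adhesion molecule, with 478 bases between them. It had 19.1, 18.3 and 16.5 FPKM in vehicle and 20.03, 28.5 and 22.4 FPKM with perhexiline. The groups did not overlap, but the difference of 0.36 did not pass (adjusted p = 0.120). Ncam1 had 38.6, 40.2 and 31.3 FPKM in vehicle and 43.4, 49.6 and 48.7 FPKM with perhexiline, also without overlap, and its difference was likewise 0.36 (adjusted p = 0.0717).

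**Figure D1:**
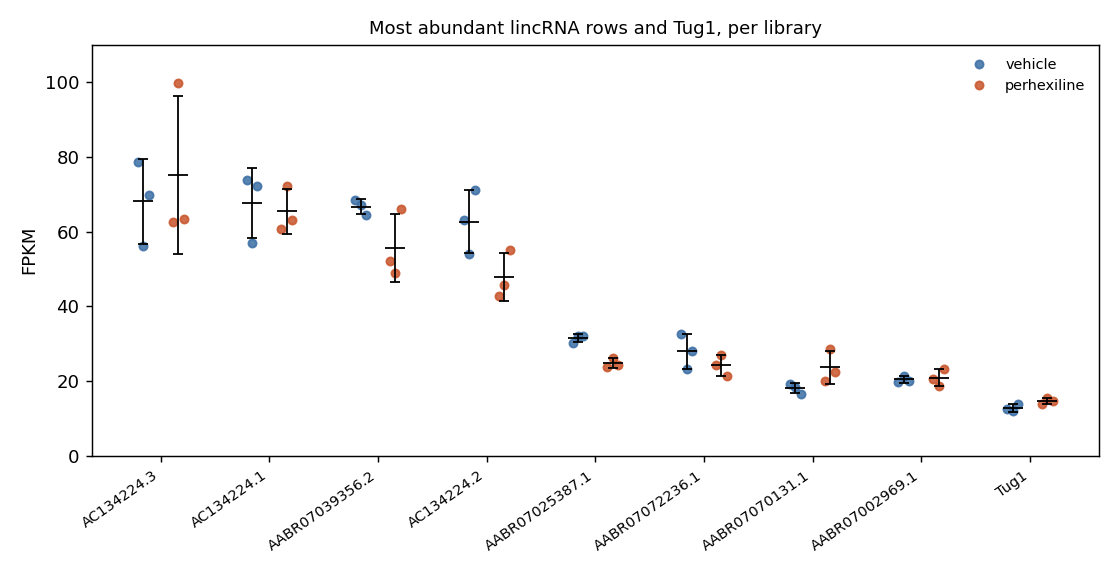
FPKM (vertical axis) of the 8 most abundant lincRNAs and Tug1 (horizontal axis) in each vehicle (blue) and perhexiline (orange) library. Points are libraries and bars are mean ± SD (n = 3). AABR07025387.1, at 30.25 to 32.2 FPKM in vehicle and 23.8 to 26.2 FPKM with perhexiline, shows separate groups, while AC134224.3 and AC134224.1 overlap.

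Tug1 was the single expressed lincRNA with a symbol from the known lncRNAs listed. Of 86 such symbols (nuclear architecture, snoRNA hosts, imprinted, microRNA hosts, heart, stress), 2 were in the table, Tug1 as lincRNA and Snhg11 as protein-coding, so the listed heart lncRNAs cannot be looked up by symbol. Tug1 is a nuclear and cytoplasmic RNA first described in developing mouse retina, where taurine raises it. It was read from chr14:83878295-83887584 on the minus strand at 12.4, 12.0 and 14.0 FPKM in vehicle and 13.8, 15.4 and 14.6 FPKM with perhexiline. The lowest perhexiline library lay just under the highest vehicle library. The means were 12.8 ± 1.03 and 14.6 ± 0.815 FPKM (SD, n = 3 each), a ratio of 1.14, and the difference of 0.18 ± 0.08 (SE) did not pass (adjusted p = 0.188). Morc2, an ATPase of chromatin silencing, starts on the other strand, head to head with Tug1 and 1505 bases away. It had 15.2, 15.0 and 17.0 FPKM in vehicle and 17.4, 18.1 and 19.2 FPKM with perhexiline. Its groups did not overlap, with a difference of 0.20 ± 0.07 (adjusted p = 0.120).

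Start regions are printed for the head-to-head pair Tug1 and Morc2, and for Hand2 and Lrrfip2, the protein-coding genes beside 2 lincRNAs that passed the test below. They are RefSeq promoters of build GRCr8 around the start, 300 bases each, 5′ to 3′ on the gene's strand, and that build need not be the one of the table. Capitals mark matches to TATAA or CCAAT on either strand; CACGTG was also searched and no region held it. The regions are chr14:82750485-82750784 (minus strand) for Tug1, chr14:82752960-82753259 (plus) for Morc2, chr16:37931439-37931738 (minus) for Hand2 and chr8:119969658-119969957 (plus) for Lrrfip2, the first of 2 entries.
Tug1: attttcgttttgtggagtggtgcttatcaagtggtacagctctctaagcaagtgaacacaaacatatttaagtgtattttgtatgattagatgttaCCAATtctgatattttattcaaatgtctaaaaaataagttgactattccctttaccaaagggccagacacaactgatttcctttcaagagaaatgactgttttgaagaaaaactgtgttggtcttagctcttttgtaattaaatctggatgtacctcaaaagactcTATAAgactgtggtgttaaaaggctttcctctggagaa
Morc2: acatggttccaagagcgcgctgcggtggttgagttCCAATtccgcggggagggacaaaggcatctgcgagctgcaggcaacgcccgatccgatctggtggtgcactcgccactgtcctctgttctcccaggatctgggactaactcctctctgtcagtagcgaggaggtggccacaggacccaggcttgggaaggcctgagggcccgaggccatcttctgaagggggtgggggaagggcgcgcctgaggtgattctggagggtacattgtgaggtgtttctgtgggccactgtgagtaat
Hand2: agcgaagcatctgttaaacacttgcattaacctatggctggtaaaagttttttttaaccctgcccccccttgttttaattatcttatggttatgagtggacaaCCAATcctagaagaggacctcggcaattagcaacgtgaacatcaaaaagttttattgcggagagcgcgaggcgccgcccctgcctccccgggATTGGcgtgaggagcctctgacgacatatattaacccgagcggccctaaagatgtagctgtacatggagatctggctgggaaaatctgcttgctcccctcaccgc
Lrrfip2: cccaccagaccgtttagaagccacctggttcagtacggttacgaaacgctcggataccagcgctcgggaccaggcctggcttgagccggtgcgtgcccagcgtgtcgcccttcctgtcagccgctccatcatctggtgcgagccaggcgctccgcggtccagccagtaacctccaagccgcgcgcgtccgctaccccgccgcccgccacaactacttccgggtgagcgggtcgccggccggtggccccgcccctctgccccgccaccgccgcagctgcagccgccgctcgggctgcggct
Of 33469 promoters of 300 bases, 26.2% held TATAA, 37.5% CCAAT and 6.42% CACGTG. Tug1 held 1 TATAA and 1 CCAAT, Morc2 held 1 CCAAT, Hand2 held 2 CCAAT and Lrrfip2 held none. The Tug1 region had 1 CG dinucleotide, with Morc2 and Hand2 at 14 each and Lrrfip2 at 37, against a median of 7. In GRCr8 the Tug1 and Morc2 regions lie farther apart than the 1505 bases between the 2 genes in the gene table. The printed Tug1 region need thus not be where the measured transcript starts. Of the 112 lincRNAs, 7 had their symbol in RefSeq and 5 a promoter there.

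Against vehicle, perhexiline changed 4 of the 112 lincRNAs at an adjusted p under 0.05, 1 higher (0.893%) and 3 lower (2.68%). That was 3.57%, against 6.66% of the 13460 genes tested (3.55% higher and 3.11% lower) and 6.97% of the protein-coding ones (3.84% higher and 3.13% lower), with p-values adjusted over all tested genes. One of the 3 lower, AABR07027381.1, entered through the vehicle libraries alone, so its direction was fixed by the rule. With a filter on the mean FPKM over all libraries instead, 3 of 109 lincRNAs passed, 1 higher and 2 lower. The groups did not overlap for 19 lincRNAs (17%), 12 lower and 7 higher, against 31.9% of all tested genes and 33.3% of protein-coding ones. At an unadjusted p under 0.05 the count was also 19 (17%), 11 lower and 8 higher, against 25.7% of all tested and 26.6% of protein-coding genes. With fewer fragments and a wider spread, the lincRNAs had less precision than the other genes, and the part of that in the lower share was not tested. Scaling by total fragments gave the same 4 lincRNAs but moved the share of higher calls among all genes from 53.4% to 70.8%. With upper-quartile scaling (436 higher, 497 lower) and limma-voom (757 higher, 805 lower) the lower calls were the more numerous, so the balance of directions over all genes depends on the setting.

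The differences were mostly small. The median over the 112 was -0.04 on the log2(FPKM + 1) scale, with quartiles of -0.22 and 0.12 and a range from -1.22 to 0.65. The median over all tested genes was 0.01, with quartiles of -0.12 and 0.13. Below 0 were 63 lincRNAs (56.2%), against 47.1% of all tested genes. AABR07027381.1 was the only lincRNA with a difference of at least 1 in size, among 115 such genes.

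**Figure D2:**
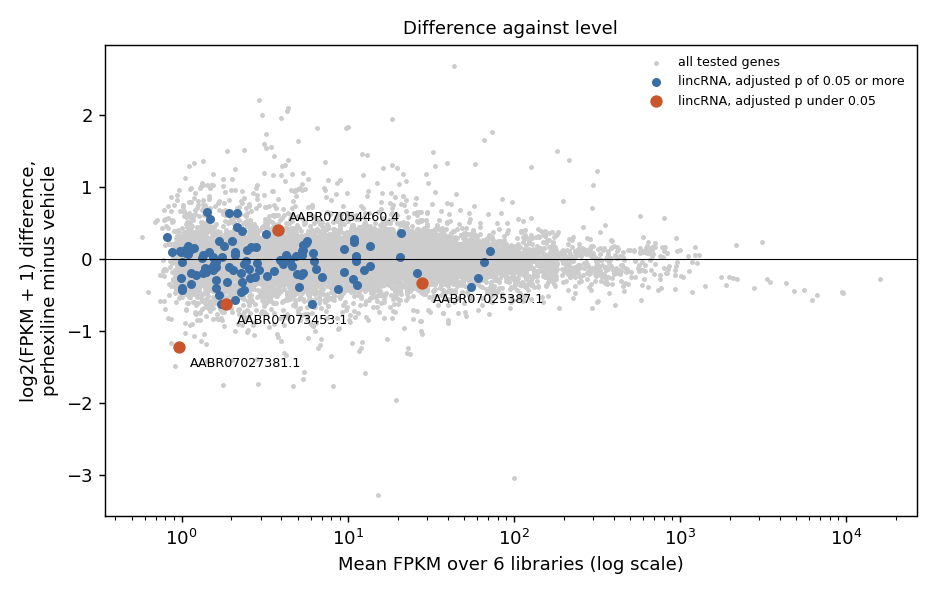
Difference between perhexiline and vehicle on the log2(FPKM + 1) scale (vertical axis) against mean FPKM over 6 libraries (horizontal axis, log scale) for 13460 tested genes (grey) and the 112 lincRNAs (blue; orange where the adjusted p was under 0.05). Most lincRNAs sit at low levels near 0, and the 4 orange points lie at -1.22, -0.62, -0.33 and 0.40.

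AABR07025387.1 was the one abundant lincRNA that passed the test. It lies at chr16:36374593-36388331 on the plus strand and starts head to head with Hand2, 1047 bases away. Hand2 is a basic helix-loop-helix transcription factor needed for the right ventricle, and in mouse a divergent noncoding transcript starts beside it. The lincRNA had 30.25, 32.0 and 32.2 FPKM in vehicle and 23.8, 26.2 and 24.4 FPKM with perhexiline. Every perhexiline library was below every vehicle library. The means were 31.5 ± 1.07 and 24.8 ± 1.26 FPKM (SD, n = 3 each), a ratio of 0.787, and the lincRNA fell by 0.33 ± 0.06 (SE) on the log2(FPKM + 1) scale (adjusted p = 0.0240). With a library left out in turn it passed in 2 of 6 fits, without vehicle library 3 (adjusted p = 0.0445) and without perhexiline library 1 (0.0455), and reached 0.0849 in the others, always with the same sign.

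Expressed lincRNAs AABR07025386.1 and AABR07025385.1, named here after their values were seen, lie in the same locus on the other side of Hand2, at least 74107 bases from it. AABR07025386.1 had 11.8, 9.24 and 9.42 FPKM in vehicle and 7.46, 7.45 and 7.11 FPKM with perhexiline. All perhexiline libraries were below all vehicle libraries, and the difference of -0.41 ± 0.10 missed the threshold by little (adjusted p = 0.0501). It passed with a pseudocount of 0.1 (0.0481), with upper-quartile scaling (0.0461) and with limma-voom (0.0440). It did not pass under the other 10 alternatives, among them all 6 fits with a library left out (0.0574 to 0.139), total-fragment scaling (0.0544) and no filter on low values (0.109). AABR07025385.1 had 2.867, 2.999 and 2.081 FPKM in vehicle and 1.85, 1.32 and 2.69 FPKM with perhexiline, with overlapping groups and a difference of -0.32 (adjusted p = 0.324). Hand2 itself had 9.47, 10.1 and 7.10 FPKM in vehicle and 7.88, 0.888 and 9.34 FPKM with perhexiline. Perhexiline library 2 stood far below the others while the other 2 lay among the vehicle values, so the difference of -0.81 ± 0.58 did not pass (adjusted p = 0.419). In that library AABR07025385.1 also had its lowest value, and without it the difference of AABR07025385.1 was -0.16 (adjusted p = 0.663), while AABR07025387.1 and AABR07025386.1 were not low there.

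AABR07073453.1, at chr8:119371728-119381600 on the plus strand, ends 411 bases before Lrrfip2 starts on the same strand. Lrrfip2 encodes an adaptor protein of Toll-like receptor and Wnt signalling. The lincRNA had 2.68, 2.51 and 2.19 FPKM in vehicle and 1.17, 1.08 and 1.48 FPKM with perhexiline, that is 156 to 196 fragments against 87 to 132. The groups were well apart. The means were 2.46 ± 0.25 and 1.24 ± 0.211 FPKM, a ratio of 0.506, and the lincRNA fell by 0.62 ± 0.12 on the log2(FPKM + 1) scale (adjusted p = 0.0319). Lrrfip2 had 115.4, 112.6 and 101.8 FPKM in vehicle and 92.6, 92.7 and 90.1 FPKM with perhexiline. Its perhexiline libraries all lay below the vehicle ones, and it fell from 109.9 ± 7.21 to 91.8 ± 1.497 FPKM, a ratio of 0.835 and a difference of -0.26 ± 0.06 (adjusted p = 0.0423). With a library left out in turn, each of the pair passed in 1 of 6 fits, without vehicle library 3 (adjusted p = 0.0416 and 0.0255), and reached 0.107 and 0.130 in the others. With limma-voom the lincRNA and Lrrfip2 both passed (adjusted p = 0.00281 and 0.0211). With the replicate number as a block in limma neither did.

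AABR07054460.4, at chr3:154850173-154851168 on the minus strand, was the one lincRNA called higher. It had 3.16, 3.04 and 3.21 FPKM in vehicle and 4.58, 4.29 and 4.55 FPKM with perhexiline. The libraries of each group lay close together, at 29 to 31 and 45 to 53 fragments, and the groups were apart. The SD within groups was 0.04 on the log2(FPKM + 1) scale, beside a median of 0.20 for the lincRNAs, and the call leans on that small spread. The means were 3.13 ± 0.0902 and 4.47 ± 0.162 FPKM, a ratio of 1.43, and the difference was 0.40 ± 0.08 (adjusted p = 0.0337). It passed in 0 of 6 fits with a library left out, at adjusted p-values from 0.0517 to 0.103, always higher with perhexiline. With limma-voom, run on the fragments, it did not pass either (adjusted p = 0.138). The nearest protein-coding gene, AABR07054460.2, was listed at 0 in all vehicle libraries and in perhexiline library 2, with 0.786 and 0.390 FPKM in perhexiline libraries 1 and 3, and was too low to test.

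AABR07027381.1, at chr17:27218450-27219680 on the plus strand, had the largest difference of the 112 and the thinnest data. It had 1.87, 1.12 and 2.25 FPKM in vehicle and 0, 0.182 and 0.329 FPKM with perhexiline. These values stand for 26 fragments over the vehicle libraries and 3 over the perhexiline libraries, a ratio of 0.102 with a 95% exact interval of 0.0198 to 0.334 that covers counting error only. The lincRNA fell by 1.22 ± 0.20 on the log2(FPKM + 1) scale (adjusted p = 0.0220). Since it entered through the vehicle libraries alone, a lower value with perhexiline was built into its choice. It passed in 3 of 6 fits with a library left out (vehicle library 2 or 3, or perhexiline library 1) and missed the threshold in the others, at up to 0.0789. Snrnp48, a protein of the minor spliceosome, lies tail to tail with the lincRNA, with 24101 bases between them. It had 10.7, 11.8 and 12.1 FPKM in vehicle and 13.4, 13.6 and 13.4 FPKM with perhexiline (difference 0.21, adjusted p = 0.0968), opposite in sign.

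Neighbouring protein-coding genes were then compared with the lincRNAs. Each lincRNA was paired with the protein-coding gene nearest by start coordinate, the lower end of a gene on either strand and so not always where transcription starts. That gave 112 pairs with 106 distinct genes, at a median distance of 26780 bases between these coordinates (range 372 to 320480). For 17 lincRNAs a different gene was nearest by the gap between gene bodies. The neighbour passed the filter on level in 77 pairs, and in 63 of these it was the more abundant of the pair. The lincRNA and its neighbour differed in the same direction in 42 of 77 pairs (54.5%), against 53.7% of 8081 pairs of neighbouring protein-coding genes. Across the 77 pairs, which share libraries and in some cases the neighbour, Pearson's r of the differences was 0.11 and Spearman's rho 0.14, against 0.15 and 0.10 for the protein-coding pairs. These values are weak and close to those of the protein-coding pairs.

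Among the 77 tested neighbours 7 (9.09%) passed the test themselves, against 6.97% of protein-coding genes. They were named after their values were seen, and Lrrfip2 was the only one whose lincRNA also passed. Myc, the growth-promoting transcription factor, rose from 9.40, 8.53 and 10.5 FPKM in vehicle to 18.3, 22.7 and 21.2 FPKM with perhexiline, a difference of 1.05 ± 0.10 (adjusted p = 0.00805), and passed with any 1 library left out. The expressed lincRNA next to it, AABR07058158.1, spans 221126 bases at chr7:102648881-102870006. In RefSeq build GRCr8 the first lncRNA past Myc is Pvt1, but the table does not give this transcript that name. It had 10.8, 10.7 and 11.5 FPKM in vehicle and 10.7, 12.7 and 10.6 FPKM with perhexiline. The groups overlapped, with a difference of 0.03 (adjusted p = 0.834).

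Rises were also called for Rcc2, a regulator of mitosis, from 48.7 ± 2.85 to 64.6 ± 5.14 FPKM (difference 0.40, adjusted p = 0.0259), while its lincRNA AABR07050283.2 differed by 0.13. Gadd45a, a gene induced by DNA damage and growth arrest, rose by 0.39 (adjusted p = 0.0261) beside -0.19 for AABR07060862.1. Nr4a1, an immediate early nuclear receptor, rose by 0.47 (0.0274) beside -0.31 for AC119007.3. By the gap between bodies Grasp lies nearer to that lincRNA than Nr4a1 does (9514 against 15356 bases). Ier5l, of the immediate early response family, rose by 0.52 (0.0319) beside -0.19 for LOC102550392. Ndufa10, a subunit of respiratory complex I, fell by 0.29 on the log2(FPKM + 1) scale (0.0245) beside 0.06 for AABR07068341.1. None of these 5 lincRNAs passed the test, and 4 of them had the sign opposite to that of the neighbour. Each of the 5 neighbours passed in 1 or 2 of 6 fits with a library left out. With limma-voom, which called 1562 of all tested genes, all 5 passed (adjusted p from 0.00628 to 0.00897). With the replicate number as a block in limma none of the 5 did (adjusted p from 0.0505 to 0.0747).

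**Figure D3:**
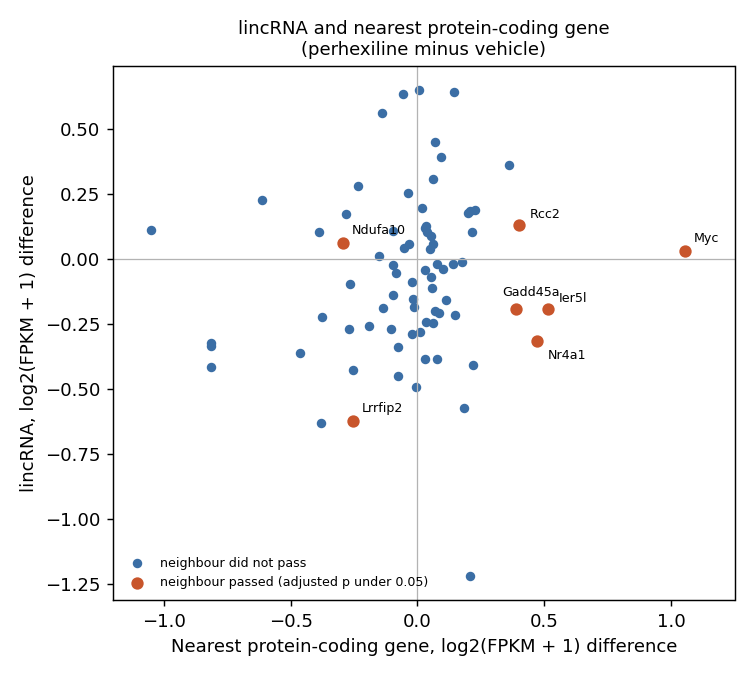
Difference of each lincRNA (vertical axis) against that of its nearest protein-coding gene (horizontal axis), perhexiline minus vehicle on the log2(FPKM + 1) scale, for the 77 pairs whose neighbour was tested. Orange points, named by the neighbour, are the 7 neighbours with an adjusted p under 0.05. Myc lies far right at 1.05 with its lincRNA at 0.03, and Lrrfip2 is the only orange point with a passing lincRNA.

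Of the 112 lincRNAs, 9 overlap a protein-coding gene despite their annotation, 7 on the opposite strand and 2 on the same. Another 33 lie within 5000 bases of one. Among these, 11 were head to head, with a median difference of -0.07 and the same sign as the neighbour in 5 of 11 pairs. The 12 upstream on the same strand had a median of -0.18 and the same sign in 5 of 12, and 8 downstream on the same strand a median of -0.14 and the same sign in 5 of 7 tested pairs. The arrangements were not tested against each other.

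**Figure D4:**
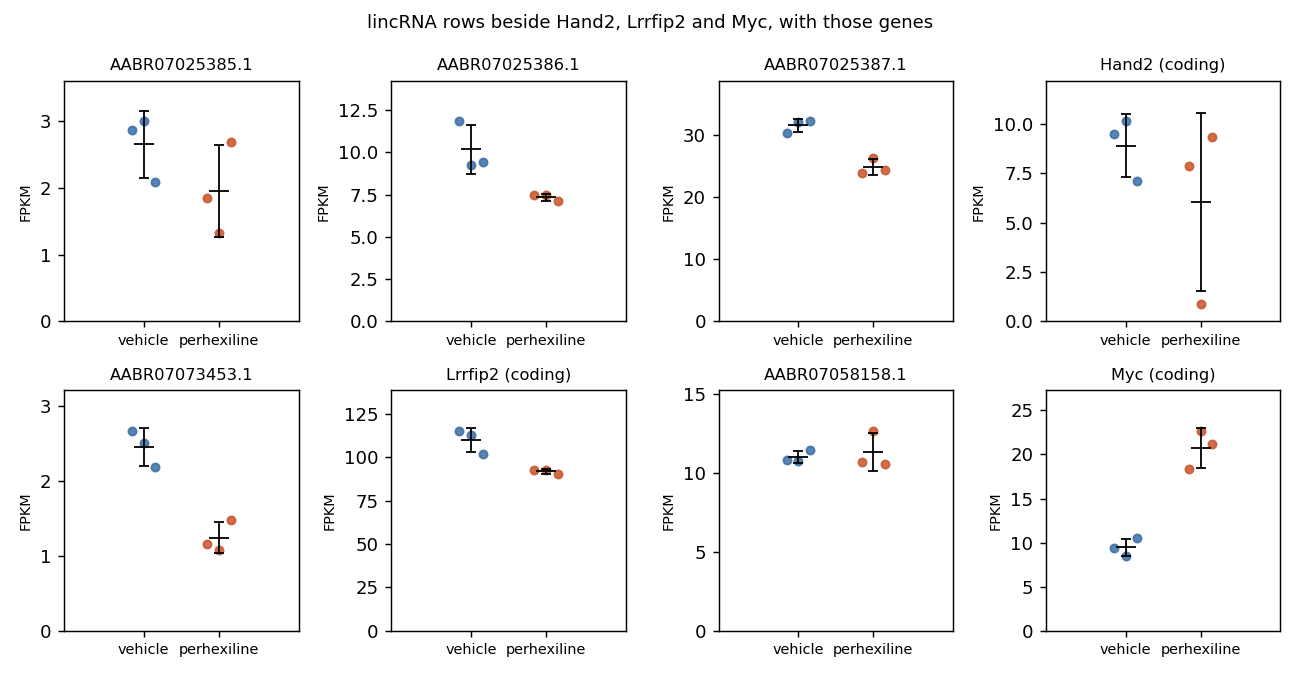
FPKM (vertical axes, each from 0 and on its own scale) per library in vehicle (blue) and perhexiline (orange) for the lincRNAs beside Hand2, Lrrfip2 and Myc and for those genes. Bars are mean ± SD (n = 3). AABR07025387.1 and AABR07073453.1 separate the groups as Lrrfip2 does, Hand2 has 1 perhexiline library at 0.888 FPKM, and AABR07058158.1 is level at 10.6 to 12.7 FPKM beside the rise of Myc.

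Proteins of paraspeckles and nuclear RNA binding, partners of long noncoding RNAs, were read as a list. All 16 were tested and 0 of 16 passed with limma or with limma-voom (4 had an unadjusted p under 0.05 with limma), beside 6.66% and 25.7% of all tested genes, shares at which a list of this size is not set apart. The list had a median difference of -0.04 beside 0.01 for all tested genes. The most abundant were Hnrnpk, with means of 204.6 and 185.8 FPKM (difference -0.14), and Hnrnpu, with means of 166.6 and 163.0 FPKM (difference -0.03).

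Cardiomyocyte markers were abundant, with 6 of 7 in the table. They summed to 14960 to 19350 FPKM in vehicle and 13500 to 15840 FPKM with perhexiline. With limma 2 of the 6 fell, beside 3.11% of all tested genes called lower and 3.55% called higher. With limma-voom 5 of 6 passed, beside 1562 of all 13460 tested genes. At an unadjusted p under 0.05 with limma 5 were lower, beside 25.7% of all tested genes in either direction. Nppa was higher by 0.23 and did not pass (limma adjusted p = 0.469). Fibroblast markers summed to 850.9 to 882.2 FPKM in vehicle and 850.1 to 890.8 FPKM with perhexiline, and went both ways. Of 7, 2 passed as higher, Dcn and Pdgfra. Col1a1, the most abundant, was lower, with means of 537.6 and 476.7 FPKM, and did not pass (difference -0.17, limma adjusted p = 0.0757). Col1a2, Lum, Postn and Tcf21 had differences from -0.04 to 0.06. Macrophage markers summed to 41.2 to 45.4 FPKM in vehicle and 26.6 to 37.3 FPKM with perhexiline, without overlap. With limma 1 of 6 tested was lower (3 at an unadjusted p under 0.05), and 2 passed with limma-voom. Endothelial markers summed to 12.0 to 14.2 FPKM, with Cdh5, Vwf and Emcn under 1 in every library. Smooth muscle markers summed to 530.0 to 706.6 FPKM in vehicle and 559.7 to 625.6 FPKM with perhexiline. Most of that was Des, at 494.0 to 654.4 FPKM in vehicle, while Myh11 was at 6.38 to 7.18 FPKM there. Of 5 tested, 0 passed with limma and 1 with limma-voom. An unadjusted p under 0.05 with limma was found for 2, Cnn1 and Myh11, both lower. Rgs5 was higher by 0.37 and did not pass (limma adjusted p = 0.250). Abcc9 and Des differed by -0.02 and -0.09. Kcnj8, too low to test, was higher, with means of 0.528 FPKM in vehicle and 1.12 FPKM with perhexiline. Sums of neuronal and glial markers (13.6 to 15.1 against 11.8 to 13.2 FPKM) and of erythroid markers (2.69 to 4.86 against 5.25 to 5.96 FPKM) did not overlap either, with 0 of 3 and 0 of 2 tested markers passing with limma or limma-voom (0 and 1 at an unadjusted p under 0.05 with limma). In bulk RNA fewer cells of a type and less RNA per cell cannot be told apart, and the part of these shifts in the lincRNA differences was not tested.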

How the data were processed

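Poly(A) RNA of 6 libraries was read as pairs on an Illumina instrument from dUTP-marked libraries, per the labels' protocols, and grouped by label. The authors deposited 1 FPKM value per gene and library, per the file headers, beside gene length, biotype and coordinates. HISAT2 2.0.5 and DESeq2 are named in the submitters' processing notes with no role. Build, annotation and counter were not given in the sources used here. Reads of overlapping, antisense or near-identical genes cannot be told apart. The product of FPKM and length was a whole multiple of a library-specific step for 100% of positive values (within 0.01), and the multiples were taken as fragments.

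The test was run over the 13460 genes that met the FPKM rule of the lincRNAs, on values of log2(FPKM + 1), by limma (version 3.58.1, R version 4.3.3; mean-variance trend, two-sided, group as the only term), with Benjamini-Hochberg adjustment over all of them. This scale understates changes of low genes. Ratios are of mean FPKM. Adjusted p-values are from this fit unless limma-voom is named. The procedure was also run on simulated data. Replicates differed beyond counting noise, with 0 identical pairs. Named were lincRNAs that passed, the 8 most abundant, those on the list of known lncRNAs, their nearest protein-coding genes (1 of which is not reported here), the edge of the rule, and, of the paraspeckle list, members that passed or the 2 most abundant. The lincRNAs, lists and comparisons were chosen with earlier results of these data known. Other filters, pseudocounts, scalings, limma-voom, a replicate block and leaving out each library were tried.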

Additional observations from a re-analysis of the deposited data

How the results depend on the processing

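The count of 4 lincRNAs passing was 0 with no filter on low values (59 of 1204 at an unadjusted p under 0.05 by limma) and ran from 0 to 5 with each library left out: 0 without vehicle library 1, perhexiline library 2 or perhexiline library 3 (18, 14 and 20 at an unadjusted p under 0.05), 1 without vehicle library 2, 3 without perhexiline library 1 and 5 without vehicle library 3. Over all tested genes, 896 became 162 with no filter, 1562 with limma-voom and 87 to 841 with a library left out. With limma-voom 5 lincRNAs passed, all lower, 2 of them shared with the 4. Neither AABR07025387.1 nor AABR07054460.4 was among them. With a threshold of 0.5 FPKM the rule gave 180 lincRNAs, and with 2 FPKM it gave 72. The share of pairs with the same sign stayed between 50.6% and 59.7% under the alternatives run. Deviations of same-numbered libraries from their group means had correlations of -0.02, -0.10 and -0.04. These show no shared shift, but they cannot tell whether replicate numbers pair the samples. A fit with the replicate number as a block gave 0 lincRNAs (23 at an unadjusted p under 0.05) and 173 genes. No named lincRNA that passed changed sign under any alternative run. The median lincRNA rested on 54.7 fragments per library, and the smallest change that this depth can show was not measured.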

Other observations

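Small RNA genes lay near some expressed lincRNAs. Within 20000 bases, 13 of the 112 had an annotated microRNA and 7 a small nucleolar RNA, but just 1, LOC102549726, held any inside its own span. AABR07054460.4, the lincRNA called higher, had 3 copies of the snoRNA family RF00056 on its own strand, 634, 2179 and 4057 bases away. AABR07072236.1 ended 478 bases from Mir568 on the same strand. AABR07065531.5, at 14.1, 13.5 and 11.8 FPKM in vehicle and 14.7, 10.7 and 10.2 FPKM with perhexiline (difference -0.15, limma adjusted p = 0.531), lay 6050 bases from Mir770, which RefSeq build GRCr8 places inside the imprinted lncRNA Meg3. The table does not give AABR07065531.5 that name.

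AABR07007026.1, named here after its values were seen, fell short of the threshold although its groups did not overlap. The lincRNA, downstream of the beta adrenergic receptor gene Adrb1, had 2.94, 2.69 and 2.71 FPKM in vehicle and 2.23, 1.35 and 1.79 FPKM with perhexiline (difference -0.45, adjusted p = 0.0871). Of the settings run it passed with limma-voom alone (0.0346).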
